A study of Saccharomyces cerevisiae with 6 samples.

Results

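The bas1 and ino4 mutants of budding yeast, Saccharomyces cerevisiae, were set against each other at 4 h in meiosis. Transcript levels came from RNA sequencing of 6 samples, 2 each of bas1, ino4 and wild type (WT), and the labels give no other allele, strain background or agent. All cultures were pregrown at 30 °C in a rich acetate medium and moved to 2% potassium acetate to sporulate. The authors' table holds 1 FPKM value per gene and genotype (fragments per kilobase of the gene, relative to all mapped fragments), so the 2 samples of a genotype cannot be told apart. The spread between replicates and the read depth are therefore unknown, and no test was made. Of 6932 entries, 4861 genes were compared. They were above 0 in both mutants, reached an FPKM of 5 in bas1 or ino4, carried a single gene name, were at least 300 bp long and overlapped no other entry. Differences are log2(FPKM + 1) in bas1 minus ino4, which understates the change of low genes. A gene was called at a difference of 1 or more in size, and counts of genes past a fold use this scale. Folds given for single genes are plain ratios of FPKM. WT was used to say which mutant departs.

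Bas1, a transcription factor of the Myb family, works with the homeodomain protein Pho2 to activate genes of purine, glycine and one-carbon metabolism. Ino4 is a basic helix-loop-helix protein that pairs with Ino2 and activates genes of phospholipid synthesis, a pairing that the repressor Opi1 opposes. In diploid yeast starved on acetate, Ime1 starts meiosis and turns on the recombination genes, and Ndt80 later turns on the middle genes for the nuclear divisions and the spore. The DNA core TGACTC is read by Bas1 and also by Gcn4, CATGTG by the Ino2-Ino4 dimer, and CACAAA is the core of the element that Ndt80 reads.

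Promoters of genes at the head of the purine, one-carbon, phospholipid and sporulation groups are shown as examples. These groups do not hold most of the called genes, many of which are on no list, and no glycolysis promoter is shown. Each promoter runs from 250 bases before to 50 bases after the gene's start, 5′ to 3′ on the coding strand. The letters are those of RefSeq R64, with matches to the core in capitals. These positions belong to R64 and not to the authors' sacCer2 table, which gave each of the 6 genes the same length. In ADE17 (chrXIII:509231-509530, minus strand) and GCV1 (chrIV:485316-485615, minus strand) the capitals mark TGACTC, 177 and 143 bases before the start.

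ADE17: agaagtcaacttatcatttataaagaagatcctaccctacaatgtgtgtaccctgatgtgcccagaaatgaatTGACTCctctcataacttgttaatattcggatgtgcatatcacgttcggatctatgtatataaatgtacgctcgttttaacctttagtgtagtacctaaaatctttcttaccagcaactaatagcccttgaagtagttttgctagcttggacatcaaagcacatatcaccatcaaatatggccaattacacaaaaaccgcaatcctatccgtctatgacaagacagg
GCV1: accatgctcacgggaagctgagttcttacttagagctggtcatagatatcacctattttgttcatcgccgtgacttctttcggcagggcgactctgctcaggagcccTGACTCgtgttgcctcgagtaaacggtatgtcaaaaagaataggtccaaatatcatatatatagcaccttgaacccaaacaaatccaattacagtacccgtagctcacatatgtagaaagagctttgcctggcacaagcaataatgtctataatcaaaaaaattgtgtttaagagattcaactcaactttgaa

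In INO1 (chrX:135884-136183, minus strand) the capitals mark CATGTG and its reverse complement CACATG, 243 and 178 bases before the start.

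INO1: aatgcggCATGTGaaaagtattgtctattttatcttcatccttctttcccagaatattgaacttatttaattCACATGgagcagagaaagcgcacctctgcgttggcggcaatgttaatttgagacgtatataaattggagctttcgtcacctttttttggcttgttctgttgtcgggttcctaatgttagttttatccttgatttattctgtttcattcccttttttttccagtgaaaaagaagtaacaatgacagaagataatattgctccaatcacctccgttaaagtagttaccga

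In SPS1 (chrIV:1486989-1487288, minus strand), SPO19 (chrXVI:304137-304436, plus strand) and CDC5 (chrXIII:271087-271386, minus strand) the capitals mark CACAAA or its reverse complement TTTGTG. SPS1 held 1 match, 6 bases before the start. SPO19 held 2, and the one nearer the 3′ end lies inside the coding sequence. CDC5 held 2, 249 and 140 bases before the start.

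SPS1: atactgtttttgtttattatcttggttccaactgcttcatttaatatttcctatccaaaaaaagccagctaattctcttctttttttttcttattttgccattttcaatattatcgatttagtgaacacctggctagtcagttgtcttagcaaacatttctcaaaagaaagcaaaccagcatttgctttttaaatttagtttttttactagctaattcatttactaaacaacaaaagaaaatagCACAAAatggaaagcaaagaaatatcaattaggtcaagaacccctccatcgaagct
SPO19: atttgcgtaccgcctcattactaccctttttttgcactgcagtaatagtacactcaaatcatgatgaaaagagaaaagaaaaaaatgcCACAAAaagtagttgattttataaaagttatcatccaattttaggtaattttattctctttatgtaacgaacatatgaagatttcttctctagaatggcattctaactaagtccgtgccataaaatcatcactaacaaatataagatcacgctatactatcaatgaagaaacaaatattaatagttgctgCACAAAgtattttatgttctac
CDC5: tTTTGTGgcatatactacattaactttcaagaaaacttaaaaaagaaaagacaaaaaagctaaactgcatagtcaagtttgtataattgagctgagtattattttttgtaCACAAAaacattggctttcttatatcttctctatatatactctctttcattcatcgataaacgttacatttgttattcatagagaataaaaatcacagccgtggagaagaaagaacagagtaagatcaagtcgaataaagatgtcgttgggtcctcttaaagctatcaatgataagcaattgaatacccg

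Most genes stood at nearly the same level in both mutants. The median difference over the 4861 genes was 0.01, 88.3% of genes lay within 1.5-fold, and the 5th and 95th percentiles were -0.65 and 0.62. At least 2-fold higher in bas1 were 107 genes (2.20%), and at least 2-fold lower were 77 genes (1.58%), with 16 and 9 of them past 4-fold on the log2(FPKM + 1) scale. Of the 107 higher genes, 39 were on the meiosis lists, 6 on the phospholipid and fatty acid lists, 7 on lists of other metabolism and 50 on no list. Of the 77 lower genes, 11 were on the glycolysis list, 7 on the lists of Bas1 targets and 47 on no list. Counts on the lists below are to be set against 2.20% higher and 1.58% lower over all genes. The number lower was 50 with a length minimum of 600 bp and 120 with overlapping entries kept. Called genes were found at every level, with 6 higher and 8 lower among 270 genes of a mean FPKM under 10, and 25 higher and 13 lower among 599 genes at 300 or more. Genes lower in bas1 were shorter, with a median length of 999 bp, against 1272 bp for those higher and 1268 bp for those between. At the edges of the thresholds, SER2 entered with 5.06 FPKM and YNR062C stayed out with 4.98, and ELC1 entered at 300 bp while YNR034W-A stayed out at 297 bp. PCK1 (1.00429) and FET3 (-1.00041) were just inside the 2-fold rule, with URA7 (0.994288) and SPI1 (-0.995407) just outside.

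**Figure D1:**
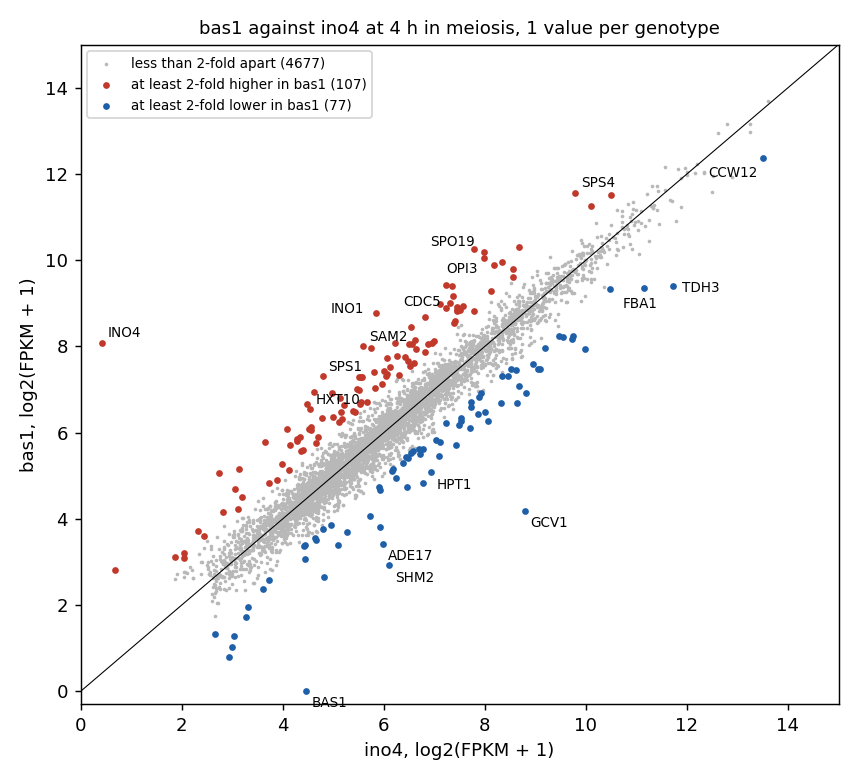
Each point is 1 of 4861 genes, with log2(FPKM + 1) in bas1 on the vertical axis and in ino4 on the horizontal axis, 1 pooled value per genotype; red points are at least 2-fold higher in bas1 (107), blue points at least 2-fold lower (77) and grey points lie between (4677). The line marks equal levels, and INO4, BAS1 and GCV1 lie farthest from it.

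Each targeted gene was near 0 in the mutant named for it. BAS1, at sacCer2 chromosome XI from 635489 to 637924, stood at an FPKM of 0.00985 in bas1, 21.1 in ino4 and 19.4 in WT. INO4, at chromosome XV from 111431 to 111886, stood at 271 in bas1, 0.339 in ino4 and 307 in WT. Of 8 meiosis markers none was near 0: their summed FPKM was 18374 in bas1, 15585 in ino4 and 16661 in WT, with IME1 the highest. The markers of vegetative growth did not lie on 1 side. CLN1, a G1 cyclin, had 10.3 in bas1, 24.4 in ino4 and 24.1 in WT, and CTS1, a chitinase left out of the comparison because it overlaps another entry, had 183 in bas1, 418 in ino4 and 400.3 in WT. CLN2, another G1 cyclin, had 27.1 in bas1, 20.4 in ino4 and 24.4 in WT, and HXT3, a hexose transporter, had 18.5 in bas1, 12.5 in ino4 and 19.4 in WT. The 3 compared ones, CLN1, CLN2 and HXT3, summed to 55.9 in bas1, 57.2 in ino4 and 67.9 in WT. The 7 compared markers of haploid cells, which a diploid culture should hold little of, summed to 214 in bas1, 168 in ino4 and 172 in WT. The rules for comparison kept only genes above 0 in both mutants. All 7 had a difference above 0, none by 2-fold. The 3 haploid markers left out for their length or overlap were split. MFA1 and MFA2, short genes for the mating factor of a cells, lay the other way: MFA1 had 248 in bas1, 607 in ino4 and 335 in WT, and MFA2 had 37.2 in bas1, 158 in ino4 and 62.3 in WT. STE3, the receptor for a-factor, had 23.6 in bas1, 9.98 in ino4 and 15.4 in WT. The part of these markers in the results below was not tested. Sums were taken over genes that passed the length and overlap rules.

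The WT value placed the 2 sides differently. Of the 107 genes higher in bas1, 41 departed from WT by at least 1.5-fold in bas1 alone, 26 did so in ino4 alone, and 37 departed in both mutants on opposite sides of WT. TIR1 departed on the same side in both, and HYM1 and SPR1 departed in neither. The 37 genes on opposite sides had a median of 0.88 in bas1 and -0.87 in ino4, both relative to WT. WT lay between the mutants for 94 of the 107, and for 1936 of all 4861 compared genes. The 107 were picked for lying 2-fold apart, which itself favours a WT value in between. Of the 77 genes lower in bas1, 60 departed in bas1 alone, with medians of -1.25 in bas1 and 0.16 in ino4 relative to WT. The genes DUT1, FKH1, YEL014C, YGR139W and YKR032W departed in ino4 alone, 8 departed on opposite sides, SPS100 and TDH1 departed on the same side, and PCC1 and YIL029C departed in neither. The bas1 value was farther from WT than the ino4 value for 69 of the 77 (89.6%). Both distances are taken from the same WT value, so they are not independent of each other. With a pseudocount of 5, the genes departing in ino4 alone numbered 16 among those higher and 1 among those lower.

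**Figure D2:**
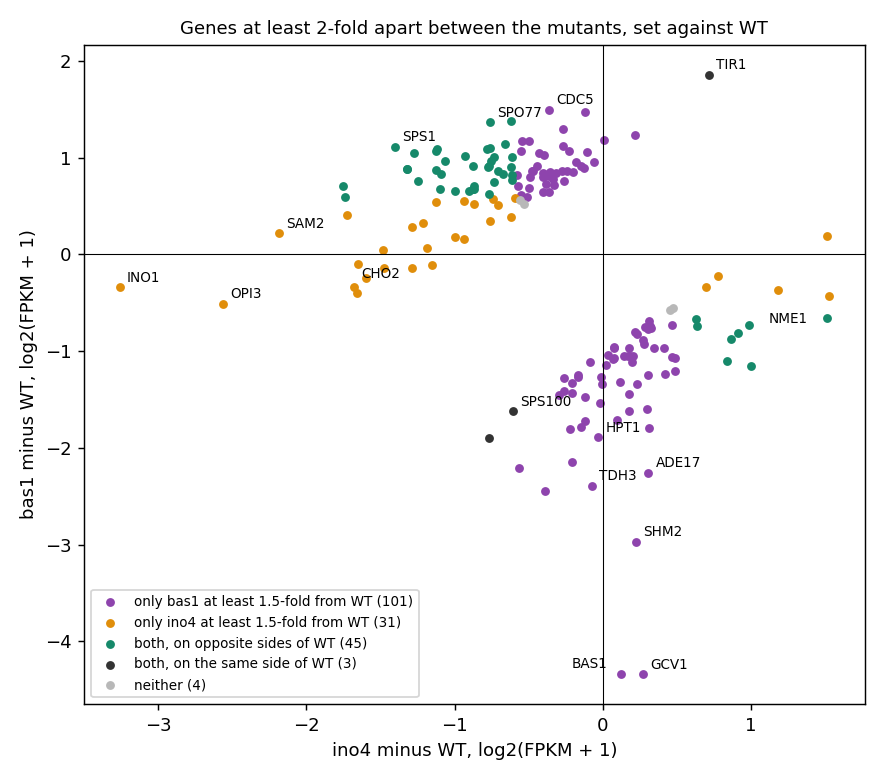
Each point is a gene at least 2-fold apart between the mutants, with bas1 minus WT on the vertical axis and ino4 minus WT on the horizontal axis, both as log2(FPKM + 1) differences of pooled values; INO4 itself is left out of the plot for scale and counted in the legend. Genes higher in bas1 fill the upper left, many on opposite sides of WT (45 of the 184 genes, both directions), while those lower in bas1 spread down near the vertical line.

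Among the regulators, few differed by 2-fold. IME1, the master switch for entry into meiosis, had an FPKM of 7959 in bas1, 6261 in ino4 and 7919 in WT. NDT80, the activator of middle genes, had 525 in bas1, 277 in ino4 and 282 in WT, a difference of 0.92 with the departure in bas1. UME6, which represses and then with Ime1 activates early genes, had 100.5 in bas1, 122 in ino4 and 139 in WT. GCN4 and PHO2 stood level in the mutants, GCN4 with 1759 in bas1 and 1679 in ino4 and PHO2 with 109.6 in bas1 and 108.6 in ino4. INO2, the partner of Ino4, was at 22.6 in bas1, 42.1 in ino4 and 41.4 in WT, a difference of -0.87, and OPI1 was at 56.9 in bas1, 75.9 in ino4 and 78.8 in WT. The list of helix-loop-helix factors and Opi1 had 10 compared members, OPI1 and UME6 among them, and INO4 itself was the member called. Of 13 Bas1 partners and Yap family factors, BAS1 itself and SWI5 were lower, and SWI5, an activator of daughter cell genes, had only 4.17 in bas1, 11.2 in ino4 and 9.71 in WT and missed 2-fold (-0.82) with a pseudocount of 5. CIN5, a Yap family factor, was named after its values were seen, with 342 in bas1 and 396 in ino4 against 850 in WT.

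Glycine and one-carbon metabolism held the largest differences below 0, BAS1 aside. These enzymes pass carbon units from glycine and serine to folate, which carries them into the purine ring. GCV1, at chromosome IV from 484161 to 485363, encodes the T subunit of glycine decarboxylase. It had an FPKM of 17.1 in bas1, 441 in ino4 and 365 in WT, a difference of -4.61, or 25.8-fold. The other subunits of that complex did not stand together. GCV3, the H subunit, had 287 in bas1, 841 in ino4 and 681 in WT, a difference of -1.55. GCV2, the P subunit, had 146 in bas1, 158 in ino4 and 150 in WT, and LPD1, the subunit shared with other dehydrogenases, had 626 in bas1, 606 in ino4 and 592 in WT. The serine hydroxymethyltransferases were split as well. SHM2, the cytosolic enzyme (chromosome XII, 257993 to 259402), had 6.57 in bas1, 68.2 in ino4 and 58.3 in WT, and SHM1, the mitochondrial one, had 153 in bas1, 145 in ino4 and 119 in WT. Of the 16 members compared, 0 were higher and 3 lower, and the list's median was -0.15. ADE3, the cytosolic folate enzyme that feeds the purine pathway, had 29.3 in bas1, 55.0 in ino4 and 40.8 in WT, and 11 of the 16 had a difference below 0.

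Purine synthesis had 3 genes called, by smaller amounts. Of 10 compared, 0 were higher and 3 lower, 9 had a difference below 0, and the median was -0.76, against 0.01 over all genes. ADE17, one of a pair of isozymes for the last steps to inosine monophosphate (chromosome XIII, 507501 to 509279), had 9.66 in bas1, 62.1 in ino4 and 50.0 in WT, or 6.43-fold lower in bas1. Its partner isozyme ADE16 had 261 in bas1, 250 in ino4 and 222 in WT and was the 1 member with a difference above 0. ADE12, which turns inosine monophosphate toward AMP, had 24.5 in bas1, 59.6 in ino4 and 60.2 in WT. ADE1 of the middle pathway had 103 in bas1, 212 in ino4 and 201 in WT. Relative to WT, the list's medians were -0.76 in bas1 and 0.11 in ino4. ADE4, the committed step, had 14.5 in bas1, 25.1 in ino4 and 32.0 in WT and was not called between the mutants.

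Salvage and histidine genes differed less. HPT1, which recovers hypoxanthine and guanine, had 32.8 in bas1, 121 in ino4 and 124 in WT, a difference of -1.86, and was the 1 called among 14 salvage and guanine genes (median -0.10). No member was called among 10 genes of histidine synthesis and of PRPP synthetase, the enzyme that makes the shared precursor (median -0.04). HIS4, at the head of that list, had 11.4 in bas1, 18.7 in ino4 and 18.6 in WT, and HIS5 had 54.5 in bas1, 75.2 in ino4 and 71.4 in WT. CHA1, the serine and threonine deaminase, was outside the lists and lower in bas1, with 13.1 in bas1, 59.4 in ino4 and 47.7 in WT.

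The core TGACTC, searched on both strands of these windows, was in 7.98% of 6001 R64 promoters and 8.17% of 4799 compared genes with a promoter. It was in 6 of 9 purine promoters (66.7%), 9 of 16 one-carbon promoters (56.2%) and 4 of 10 promoters of the histidine list (40%). Among all genes lower in bas1 it was in 11 of 75 (14.7%), and among those higher in 7 of 105 (6.67%). GCV1, SHM2, GCV3, ADE17, ADE12 and ADE1 held it, while HPT1, which was also called, did not. HIS4 and HIS5, which were not called, held it too. A match describes the letters only, and which protein binds there was not measured.

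**Figure D3:**
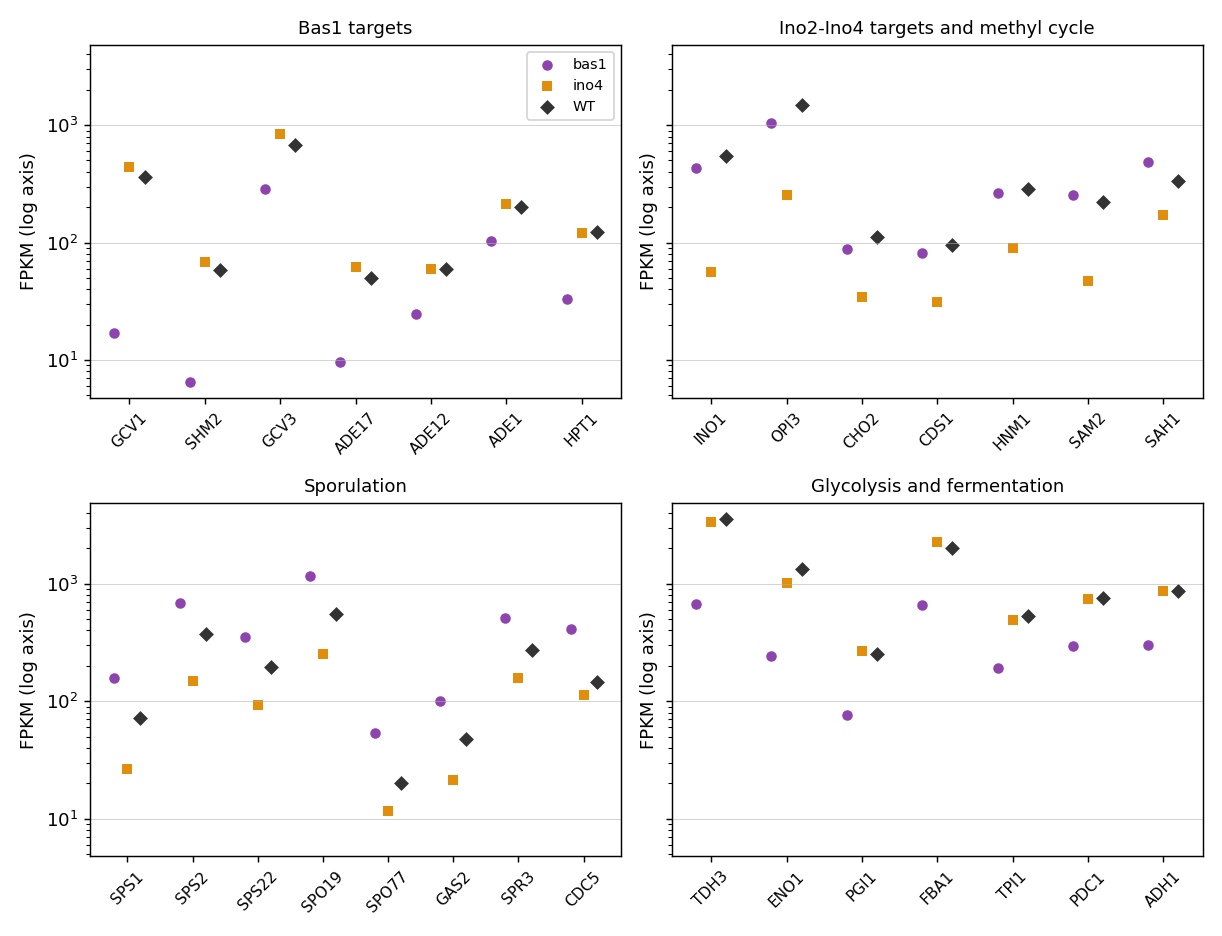
FPKM on a log axis for called genes picked from 4 groups, 1 pooled value per genotype (purple circles bas1, orange squares ino4, black diamonds WT). Members that were not called, such as ADE16, GCV2, SAM1 and MPC54, are not shown. Among the genes shown, bas1 is low with ino4 close to WT in the Bas1 targets and glycolysis. In the phospholipid and methyl cycle genes shown ino4 is low, and in the sporulation genes shown bas1 is above WT and ino4 below it.

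The phospholipid genes that were called were higher in bas1, and all of them departed from WT in ino4 alone. INO1, the rate-limiting enzyme of inositol synthesis (chromosome X, 134329 to 135930), had an FPKM of 434 in bas1, 56.6 in ino4 and 551 in WT, a difference of 2.92, or 7.68-fold. OPI3 and CHO2 encode the methyltransferases that turn phosphatidylethanolamine into phosphatidylcholine. OPI3 (chromosome X, 572308 to 572928) had 1051 in bas1, 252 in ino4 and 1496 in WT, and CHO2 had 88.7 in bas1, 34.4 in ino4 and 112 in WT. CDS1, which makes CDP-diacylglycerol, had 81.3 in bas1, 31.1 in ino4 and 96.3 in WT. ITR1, the main inositol transporter, had 157 in bas1, 65.1 in ino4 and 208 in WT. In each of these genes bas1 was itself somewhat below WT. Of 18 compared members of the inositol and CDP-diacylglycerol pathway, 5 were higher and 0 lower, with a median of 0.15. CHO1, the phosphatidylserine synthase, was not called, with 306 in bas1, 206 in ino4 and 336 in WT. PIS1, the phosphatidylinositol synthase, lay on the other side, with 73.3 in bas1, 125 in ino4 and 112 in WT.

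The Kennedy pathway, which builds phosphatidylcholine from choline, had 1 of 8 members called. This was HNM1, the choline transporter, with 266 in bas1, 89.8 in ino4 and 284 in WT. The list's median was 0.47. Of 15 fatty acid genes 0 were called, and the median was 0.27. FAS1, a fatty acid synthase subunit, had 114 in bas1, 67.1 in ino4 and 169 in WT, so that both mutants were below WT. SUR4, a fatty acid elongase, had 41.2 in bas1, 24.7 in ino4 and 34.2 in WT.

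The methyl cycle, which supplies the methyl groups for phosphatidylcholine, was split within a mostly level list of 18 methionine genes (2 higher, 0 lower, median -0.07). SAM2, an S-adenosylmethionine synthetase, had 256 in bas1, 47.4 in ino4 and 220 in WT, a difference of 2.41. Its paralog SAM1 lay on the other side at a low level, with 17.3 in bas1, 28.2 in ino4 and 25.6 in WT. SAH1, which clears the product of methylation, had 485 in bas1, 173 in ino4 and 332 in WT. The list's other members lay between -0.68 and 0.61, with MET3 of sulfate assimilation at 47.2 in bas1, 73.5 in ino4 and 43.8 in WT. MET17, which builds homocysteine, overlaps another entry and was not compared, and its listed values lay the other way from SAM2, with 20.6 in bas1, 57.9 in ino4 and 43.7 in WT.

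The core CATGTG was in 6.93% of all R64 promoters, in 7 of 18 promoters of the inositol pathway (38.9%), in 3 of 8 of the Kennedy pathway (37.5%) and in 2 of 15 fatty acid promoters (13.3%). Among genes higher in bas1 with ino4 alone departing it was in 6 of 24 (25%), and among those with bas1 alone departing in 3 of 41 (7.32%). INO1, OPI3 and CDS1 held it, while CHO2 and HNM1, which were also called, did not. INO2 held it as well, without being lower in ino4.

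The largest group of differences was in sporulation. On the division and spore lists, called higher in bas1 were 5 of 16 division genes and 8 of 21 prospore membrane genes. The same held for 3 of 8 septin genes, 16 of 24 spore wall genes and 7 of 8 sporulation kinases and other sporulation genes. In the spore wall list 1 gene was lower. On the lists of entry and recombination genes, 0 of 12, 0 of 9, 0 of 15 and 1 of 19 were called. Over all compared genes 2.20% were higher and 1.58% lower, so these 4 counts are near that share. In whole cultures, fewer cells at a stage and less RNA per cell cannot be told apart, and the share of cells at each stage is not given in the sources used here. In the order set out here, the medians were 0.28 for 12 entry regulators and 0.06 for 9 break formation genes. For 15 axis and synapsis genes the median was 0.15, and for 19 strand exchange and resolution genes it was 0.05. The medians were then 0.39 for 16 cyclins, polo kinase and APC genes, 0.82 for 21 outer plaque and prospore membrane genes and 0.70 for 8 septin genes. Spore wall genes (24) had 1.35 and the 8 sporulation kinases and other sporulation genes 1.39. The lists were drawn up with earlier results of these data known, so this order is a description. The last list mixes kinases with other sporulation genes and is not a stage after the spore wall.

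On the 4 lists of entry and recombination genes EXO1 alone was called. Differences were above 0 for 10 of 12 entry, 7 of 9 break formation, 14 of 15 axis and 11 of 19 strand exchange genes. Over all compared genes the share above 0 was 51.5%. EXO1, a nuclease of the crossover step, had 78.1 in bas1, 35.0 in ino4 and 39.8 in WT. SPO11, which cuts the DNA, had 104 in bas1, 102 in ino4 and 83.9 in WT. HOP1, an axis protein, had 1477 in bas1, 1490 in ino4 and 1418 in WT. DMC1, the meiotic strand exchange protein, had 4058 in bas1, 4096 in ino4 and 3665 in WT. IME2, the kinase downstream of Ime1, had 2511 in bas1, 1834 in ino4 and 1841 in WT.

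Among the division genes, 5 of 16 were higher in bas1 and 0 lower. CDC5, the polo kinase that lets cells leave the pachytene stage (chromosome XIII, 269019 to 271136), had 409 in bas1, 112 in ino4 and 144 in WT, a difference of 1.86. MAM1, which orients sister kinetochores together, had 266 in bas1, 116 in ino4 and 164 in WT. CDC20, an activator of the anaphase-promoting complex, had 74.4 in bas1, 33.8 in ino4 and 42.9 in WT, and CLB4 had 89.7 in bas1, 41.0 in ino4 and 53.7 in WT. SGO1, the protector of centromeric cohesin, had 160 in bas1, 78.3 in ino4 and 93.9 in WT. These 5 departed from WT in bas1 alone. Other cyclins were not called. CLB1 had 54.4 in bas1 and 45.5 in ino4, and CLB3 had 66.8 in bas1 and 51.3 in ino4. CLB2, the mitotic cyclin, lay on the other side with 13.5 in bas1 and 23.6 in ino4. None of 23 kinetochore genes was called, which is near the share over all genes (2.20% higher, 1.58% lower), and their median was -0.05.

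The genes that build the prospore membrane differed more. Of 21, 8 were higher and 0 lower, and 20 of the 21 were above 0. SPO19, a membrane-anchored protein of the prospore (chromosome XVI, 304386 to 305057), had 1170 in bas1, 253 in ino4 and 551 in WT, a difference of 2.20. SPO77 had 53.9 in bas1, 11.5 in ino4 and 20.2 in WT, and counts here and among the wall genes. SSP1, of the leading edge coat, had 268 in bas1, 73.4 in ino4 and 125 in WT, and SPO21, of the meiotic outer plaque, had 111 in bas1, 34.3 in ino4 and 48.9 in WT. The outer plaque subunit MPC54 was not called, with 108 in bas1, 90.6 in ino4 and 114 in WT. Among septins, which line the prospore membrane, the sporulation members SPR3 and SPR28 stood apart from the vegetative ones. SPR3 had 510 in bas1, 159 in ino4 and 271 in WT, and SPR28 had 470 in bas1, 177 in ino4 and 265 in WT. CDC11, used in mitotic growth, had 119 in bas1 and 106 in ino4, and CDC12 had 57.5 in bas1 and 53.4 in ino4. GIP1, a phosphatase subunit that organises the septins, was higher in bas1 too, with 66.6 in bas1, 22.0 in ino4 and 42.0 in WT.

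In the spore wall list 16 of 24 were higher in bas1, 1 was lower, and WT lay between the mutants for 17. Over all compared genes WT lay between them for 1936 of 4861. Relative to WT the medians were 0.86 in bas1 and -0.55 in ino4. SPS2 had 687 in bas1, 148 in ino4 and 372 in WT, and SPS22, its relative, had 352 in bas1, 92.1 in ino4 and 197 in WT. GAS2, a glucan remodelling enzyme, had 100.3 in bas1, 21.2 in ino4 and 47.4 in WT. CDA1 and CDA2 are neighbouring genes for the chitin deacetylases that make chitosan. CDA1 had 476 in bas1, 148 in ino4 and 255 in WT. CDA2 had 952 in bas1, 288 in ino4 and 486 in WT. Not all wall genes followed. DIT1, for the dityrosine layer, was not called, with 49.1 in bas1, 25.9 in ino4 and 26.7 in WT, and SPS100 was lower in bas1, with 46.3 in bas1, 94.3 in ino4 and 144 in WT. SPS100 was below WT in both mutants. The 2 wall genes left out for overlap lay above 0, YCR045C with 244.5 in bas1, 65.4 in ino4 and 111 in WT and DIT2 with 6.92 in bas1, 2.73 in ino4 and 2.82 in WT.

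The sporulation kinases and other sporulation genes had 7 of 8 members higher in bas1. SPS1, a kinase of spore formation (chromosome IV, 1485559 to 1487031), had 157 in bas1, 26.7 in ino4 and 72.2 in WT, a difference of 2.51 or 5.89-fold. SPS4, the most abundant, had 3032 in bas1, 885 in ino4 and 1897 in WT, and PES4, an RNA-binding protein, had 502 in bas1, 137 in ino4 and 236 in WT. In all 8 the WT level lay between the mutants, as it did for 1936 of all 4861 compared genes. SMK1, the meiotic MAP kinase, had 129 in bas1, 55.4 in ino4 and 71.2 in WT, and ISC10, not called, had 89.0 in bas1, 47.8 in ino4 and 65.9 in WT.

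**Figure D4:**
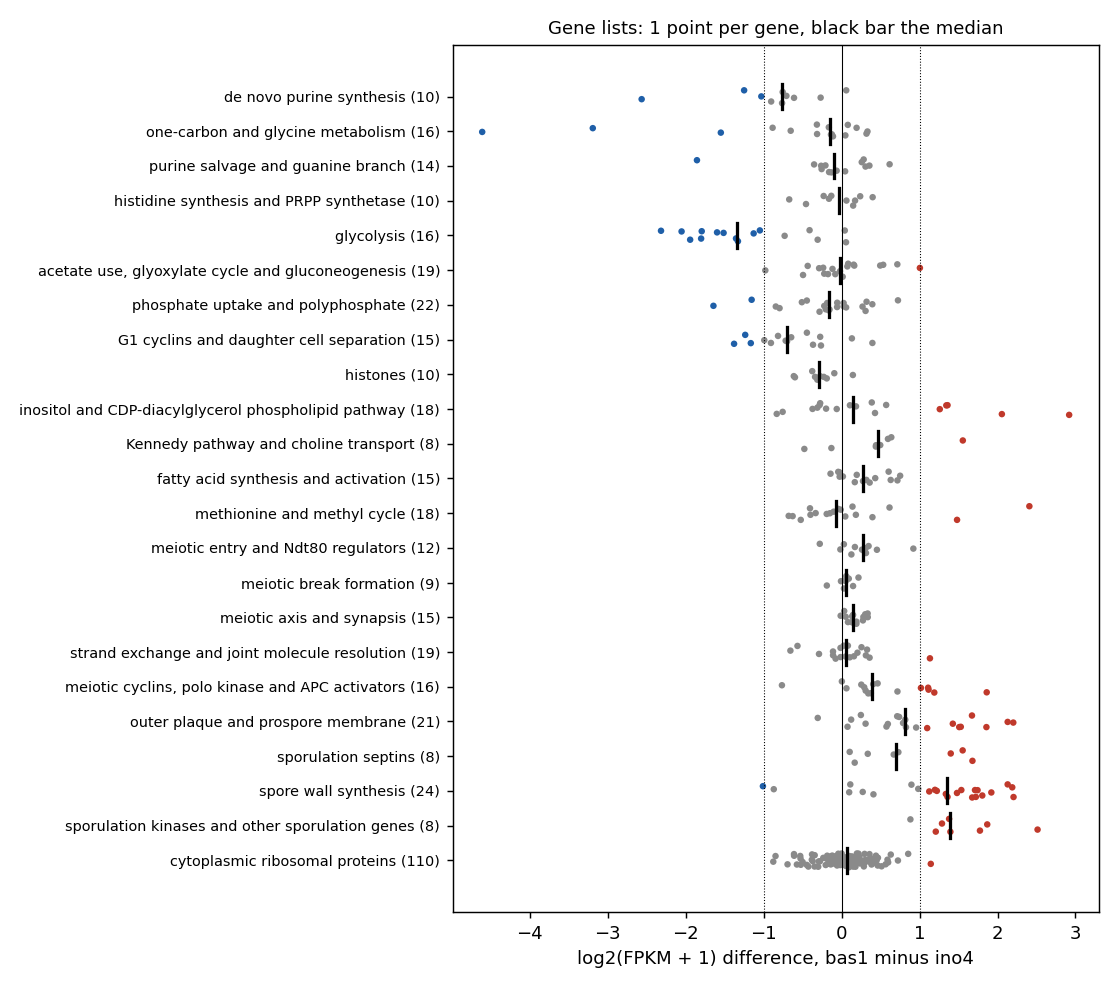
Each point is 1 compared gene of the named list, placed by its log2(FPKM + 1) difference in bas1 minus ino4, with the number of genes in brackets, the median as a black bar and dotted lines at the 2-fold rule. Entry and recombination lists have medians from 0.05 to 0.28, and prospore membrane and wall lists lie farther right, at 0.82 and 1.35. Purine (-0.76) and glycolysis (-1.34) lie to the left.

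The core CACAAA was in 18.8% of all R64 promoters and 19.3% of the compared ones. Of genes higher in bas1 it was in 71 of 105 (67.6%), and of genes lower in 12 of 75 (16%). It was in 31 of 37 (83.8%) of the genes on opposite sides of WT, in 29 of 41 (70.7%) where bas1 alone departed and in 10 of 24 (41.7%) where ino4 alone departed. By list, it was in 18 of 21 outer plaque and prospore membrane promoters (85.7%), 16 of 24 spore wall promoters (66.7%) and 7 of 8 of the kinase list (87.5%). The division list had it in 7 of 16 (43.8%) and the septins in 3 of 8 (37.5%), close to the entry regulators with 4 of 12 (33.3%). It was in 5 of 19 strand exchange and resolution promoters (26.3%), 5 of 23 kinetochore promoters (21.7%), 3 of 15 axis and synapsis promoters (20%) and 1 of 9 break formation promoters (11.1%). NDT80 also held it. Binding of Ndt80 was not measured.

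Glycolysis was the list with the most members lower in bas1, in cultures whose carbon source was acetate. Of 16 compared, 0 were higher and 11 lower, and the median was -1.34. Relative to WT it was -1.50 in bas1 and -0.08 in ino4, so the departure was in bas1. TDH3, the main glyceraldehyde-3-phosphate dehydrogenase (chromosome VII, 882817 to 883815), had 674 in bas1, 3361 in ino4 and 3536 in WT, a difference of -2.32. ENO1, an enolase, had 244 in bas1, 1017 in ino4 and 1331 in WT. ENO2, the other enolase, had 102 in bas1, 394 in ino4 and 455 in WT. Of the 30-base words of TDH3, ENO1 and ENO2, 45%, 40% and 40% occur more than once in the R64 genome. For TDH2, TDH1 and ADH1, also lower in bas1, the shares were 52%, 27% and 19%. For PGI1, FBA1 and TPI1 the share was 0. Reads may have been split among the repeated stretches. PGI1, phosphoglucose isomerase, had 76.0 in bas1, 268 in ino4 and 251 in WT. FBA1, the aldolase, had 657 in bas1, 2281 in ino4 and 2018 in WT, and TPI1, the triose isomerase, had 192 in bas1, 492 in ino4 and 533 in WT. Of the 3 pyruvate decarboxylase genes, which open the path to ethanol, PDC1 and PDC6 were lower in bas1 and PDC5 was not called. PDC1 had 297 in bas1, 747 in ino4 and 751 in WT. PDC6 had 33.6 in bas1, 70.5 in ino4 and 60.1 in WT, and PDC5 had 7.15 in bas1, 6.92 in ino4 and 6.14 in WT. ADH1, the alcohol dehydrogenase that makes ethanol, had 301 in bas1, 862 in ino4 and 872 in WT. The genes GPM1, CDC19 and PGK1 of lower glycolysis overlap another entry and were not compared, but their listed values lay the same way. GPM1 had 120 in bas1, 521 in ino4 and 547 in WT. CDC19 had 237 in bas1, 869 in ino4 and 842 in WT. PGK1 had 326 in bas1, 875 in ino4 and 944 in WT.

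The irreversible early steps differed less. PFK1, a phosphofructokinase subunit, had 171 in bas1, 227 in ino4 and 241 in WT. PFK2, the other subunit, had 134 in bas1, 223 in ino4 and 232 in WT. HXK2, a hexokinase, had 6.20 in bas1, 7.90 in ino4 and 8.45 in WT. Genes of the reverse path were mostly level. Of 19 acetate and gluconeogenesis genes 1 was called, PCK1, the enzyme that commits carbon to glucose synthesis, at 2903 in bas1, 1447 in ino4 and 1859 in WT. Its difference of 1.00429 was 0.99 under each of the 3 rescalings. FBP1, the other committed step, had 108 in bas1, 127 in ino4 and 121 in WT, and ICL1, of the glyoxylate cycle, had 856 in bas1, 521 in ino4 and 566 in WT. None of 15 TCA cycle genes was called (median 0.05). ADH2, the alcohol dehydrogenase that consumes ethanol, lay outside the lists and was lower in bas1, with 178 in bas1, 533 in ino4 and 453 in WT.

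Among 15 hexose transporters 3 were higher in bas1. HXT10 had 92.2 in bas1, 22.4 in ino4 and 50.1 in WT, a difference of 2.00. The others called were low in every genotype. HXT4 had 16.8 in bas1, 6.08 in ino4 and 18.7 in WT. HXT7 had 7.66 in bas1, 2.65 in ino4 and 7.30 in WT. HXT4 and HXT7 missed the 2-fold rule with a pseudocount of 5, at 0.98 for HXT4 and 0.73 for HXT7. Of the 30-base words of HXT7, 96% occur more than once in the R64 genome. HXT4 and HXT7 departed from WT in ino4 alone, and for HXT10 the mutants lay on opposite sides of WT. HXT14, left out for overlap, had 121 in bas1, 28.4 in ino4 and 73.5 in WT. SGA1, the glucoamylase that sporulating cells use to break down glycogen, was the 1 called of 16 trehalose and glycogen genes, with 80.2 in bas1, 26.3 in ino4 and 65.6 in WT.

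On the small lists of G1 and daughter cell separation (20% lower) and of the cell wall (9.52% lower), the share lower was above that of all compared genes (1.58%). Of 15 G1 cyclin and daughter separation genes, 0 were higher and 3 lower, 2 of the 15 had a difference above 0, and the median was -0.70. CLN1 and SWI5 were among the 3, and CLN1 missed the rule with a pseudocount of 5 (-0.94). CCW12, an abundant wall mannoprotein, had 5329 in bas1, 11594 in ino4 and 13366 in WT, a difference of -1.12 that was -0.70 under quantile normalization. CIS3, another wall protein, had 157 in bas1, 321 in ino4 and 341 in WT. TIR1, a mannoprotein made in low oxygen and cold, was higher, with 371 in bas1, 168 in ino4 and 102 in WT. Of 21 wall genes 1 was higher and 2 lower, 8 had a difference above 0 and 13 below, and the median was -0.32. CWP2, a wall mannoprotein left out for its length, had 2070.4 in bas1, 7099.8 in ino4 and 6591 in WT. SED1, on the same list, was listed at 17387 in bas1 and 0 in ino4 and WT, and the rule of values above 0 left it out. Whether a listed 0 stands for a lack of transcript was not tested.

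Other lists held 2 called genes or fewer. Of 21 ergosterol genes 2 were lower (9.52%, against 1.58% of all compared genes). ERG3, a sterol desaturase, had 103 in bas1, 318 in ino4 and 282 in WT. ERG20, farnesyl pyrophosphate synthetase, had 25.9 in bas1, 58.6 in ino4 and 55.8 in WT. Of 22 phosphate genes 2 were lower (9.09%), and in these both mutants lay below WT. SPL2, which restrains low-affinity phosphate uptake, had 42.6 in bas1, 135 in ino4 and 201 in WT. VTC1, of the polyphosphate polymerase, had 158 in bas1, 352 in ino4 and 432 in WT. Of 22 heat shock and stress genes 2 were higher (9.09%, against 2.20% of all compared genes). HSP26, a small heat shock protein, had 215 in bas1, 84.7 in ino4 and 118 in WT. SSA4, a stress-induced Hsp70, had 139 in bas1, 61.9 in ino4 and 77.1 in WT. Of the members left out for length or overlap, DDR2, SIP18 and GRE2 lay the other way by over 4-fold. DDR2, a stress-induced gene, had 539 in bas1, 2193 in ino4 and 1881 in WT. SIP18, known from salt and desiccation stress, had 534 in bas1, 2333 in ino4 and 2639.9 in WT. GRE2, a reductase, had 9.08 in bas1, 40.5 in ino4 and 30.1 in WT. CPS1, a vacuolar carboxypeptidase, was the 1 called of 23 autophagy and protease genes, with 85.9 in bas1, 233 in ino4 and 215 in WT. Of 110 cytoplasmic ribosomal protein genes RPL22B alone was called, with 8.17 in bas1, 3.15 in ino4 and 9.11 in WT, and it missed the rule with a pseudocount of 5 (0.69). No gene was called among 36 DNA replication genes (median 0.10), 10 histone genes (-0.29), 17 haploid genes (0.13, with 13 above 0 and 4 below), 15 endoplasmic reticulum genes (0.11) or 33 proteasome genes (0.14). The same held for 35 ribosome biogenesis genes (0.29), 46 mitochondrial ribosomal protein genes (-0.23), 24 respiratory chain genes (-0.15), 16 arginine and lysine genes (-0.15) and 9 branched-chain amino acid genes (0.02). With 2.20% higher and 1.58% lower over all genes, 0 called on lists of this size is near the share. ARG4, the arginine gene with the largest difference, had 150 in bas1, 81.7 in ino4 and 171 in WT. LEU2, a leucine gene that often serves as a strain marker, had 81.1 in bas1, 145 in ino4 and 48.4 in WT, and the markers of these strains are not given in the labels. Of the 10 histone genes 9 had a difference below 0, and HHO1, the linker histone, was at 0.14.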

How the data were processed

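Transcripts were measured by RNA sequencing of 2 samples each of bas1, ino4 and WT. The FPKM values were made by the authors and deposited as 1 column per genotype, per the file headers. STAR, Cufflinks and sacCer2 are credited to the submitters' processing notes, which give no versions. The way samples were combined, the use of strand and the read depth are not stated there, so no interval or floor is given. Values were taken as log2(FPKM + 1) with no further scaling and subtracted. With 1 value per genotype no test, block or replicate check was possible. A mutant departed from WT at 1.5-fold on this scale. Called genes were at least 2-fold apart.

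Members and the 42 gene lists (954 genes, 836 compared) were chosen with earlier results of these data known. The rule for named genes took INO4, BAS1, INO2, OPI1, PHO2, GCN4, IME1, UME6 and NDT80, the 15 highest and 15 lowest differences, and from each list the 4 largest past 2-fold or, with none, the 2 largest. Further list members are named to show pathway neighbours, and they and genes outside the lists were chosen after their values were seen. Of compared genes, 4821 matched RefSeq R64 by symbol. Promoters and symbols come from R64, and positions in the text are those of sacCer2 unless R64 is named. Motifs were counted on both strands, once per promoter, and none contains another. Repeated sequence was counted as the share of a gene's 30-base words that occur more than once in the R64 genome. The steps were tested on simulated data. Alternatives were other pseudocounts, filters, fold rules and 3 scalings (by the median, by quantiles, and by a mean of log ratios that trims 30% at each end). Python 3.11.15, numpy 2.4.6, pandas 2.3.3 and matplotlib 3.10.9 were used. The values of a gene counted within its list are not reported here.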

Additional observations from a re-analysis of the deposited data

How the results depend on the processing

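With 1 pooled value per genotype, neither replicate spread nor depth is known, so counts say how many genes lie past a fold and nothing on how often they would do so again. No paired analysis was possible because the table gives 1 value per genotype. Leaving out a replicate could not be run for the same reason. Of 96 counts under 12 alternatives 77 stayed within 1.5 times, of 504 list medians 3 changed sign and of 1289 values of named genes 0 did, with 11 crossing 2-fold. Those medians were, for hexose transporters, -0.0935 at an FPKM of at least 20. With genes of at least 600 bp the median was 0.14 for histones, where HHO1 alone is left. For the list of helix-loop-helix factors and Opi1 the median at that length was -0.11. Genes lower in bas1 numbered 50 with genes of at least 600 bp and 120 with overlapping entries kept. A 1.5-fold rule gave 269 higher and 300 lower, with bas1 alone departing for 77 and 165 and ino4 alone for 59 and 18. Higher genes departing in ino4 alone were 16 with a pseudocount of 5 and 41 with overlaps kept. Lower genes departing in ino4 alone were 1 with a pseudocount of 5, 2 at an FPKM of at least 20, 11 with no length minimum, 1 with genes of at least 600 bp and 14 with overlaps kept. Lower genes on opposite sides were 4, 5, 2 and 15 under the pseudocount of 5, the FPKM of 20, the 600 bp minimum and with overlaps kept. Higher calls were 58.2% of all calls, 65.5% with genes of at least 600 bp and 47.3% under the 1.5-fold rule. The cause of these moves was not tested. Scalings moved the median difference by at most 0.011 and gave 105 to 107 higher and 79 or 80 lower.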

Other observations

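Of the called genes, 50 of the 107 higher in bas1 and 47 of the 77 lower are on none of the lists, 28 and 20 of them with a systematic name only in the table. Those named here that the rule did not take were chosen after their values were seen. Higher in bas1 and expressed at high levels were YOR214C (SPR2 in RefSeq), with 1222 FPKM in bas1, 221 in ino4 and 746 in WT, YDR042C, with 670 in bas1, 163 in ino4 and 342 in WT, and YFR032C (RRT5), with 993 in bas1, 324 in ino4 and 495 in WT. YOR214C and YDR042C hold CACAAA in their promoters. GAT4, a GATA-family zinc finger gene, had 32.6 in bas1, 5.68 in ino4 and 21.3 in WT, and PFS1 had 121 in bas1, 23.4 in ino4 and 58.1 in WT. BAP2 and TAT1, neighbouring genes for amino acid permeases, were higher together. BAP2 had 68.8 in bas1, 22.7 in ino4 and 27.5 in WT, and TAT1 had 29.0 in bas1, 13.8 in ino4 and 14.4 in WT.

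Among the genes lower in bas1 were transporters as well. DAL5, the allantoate transporter, had 88.6 in bas1, 257 in ino4 and 186 in WT. DAL4, the allantoin transporter, had 56.2 in bas1, 130 in ino4 and 93.9 in WT. GAP1, the general amino acid permease, had 251 in bas1, 586 in ino4 and 521 in WT. PMA1, the plasma membrane proton pump, had 112 in bas1, 236 in ino4 and 231 in WT, and CHS2, the chitin synthase of the division septum, had 12.0 in bas1, 37.4 in ino4 and 26.3 in WT. YLR164W (SHH4) had 120 in bas1, 449 in ino4 and 365 in WT. The RNA gene NME1 had 5.27 in bas1, 27.2 in ino4 and 8.89 in WT. Genes lower in bas1 through ino4 being above WT were few. DUT1, for the enzyme that removes dUTP, had 45.5 in bas1, 92.2 in ino4 and 53.3 in WT, and FKH1, a forkhead factor, had 9.42 in bas1, 20.4 in ino4 and 12.2 in WT.

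Next to each other in the table of compared genes stood 7 pairs that were both higher in bas1 and 2 pairs that were both lower. They held 14 of the 107 higher genes and 4 of the 77 lower. The number of such pairs to expect from gene order alone was not worked out. Pairs higher included SPS2 with SPS1, 262 bp apart, SSP1 with PFS1, 167 bp apart, and LOH1 with IRC18. Of 1122 entries at the FPKM minimum that the other rules left out, 58 had values at least 2-fold higher in bas1 and 89 at least 2-fold lower.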
